A study of Homo sapiens with 12 samples.

Results

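PHGDH, the enzyme that opens the serine synthesis pathway, and 8 enzymes that stand beside it in serine, glycine and folate metabolism were followed through 12 RNA-seq libraries of ovarian cancer cell lines. The 9 genes were PHGDH, PSAT1, PSPH, SHMT1, SHMT2, MTHFD2, MTHFD1L, MTHFD1 and ALDH1L2. They were chosen by the level of PHGDH, which was lower with quinacrine than with vehicle in all 6 lines, and the partners were taken as the other enzymes of the pathway. They are 9 of the 18720 genes that passed the expression filter, and 9 of 60669 gene identifiers in the count table. All 9 passed that filter, ALDH1L2 mainly through the HeyA8 family and SK-OV-3-TR.

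Each line gave 1 library with vehicle and 1 with 8 µM quinacrine (QC), an antimalarial drug, both collected after 6 h. The sensitive lines were HeyA8, SK-OV-3 and OV2008. Each had a resistant partner derived from it, so the lines form 3 families. HeyA8-MDR is the resistant partner of HeyA8, SK-OV-3-TR that of SK-OV-3 and C13 that of OV2008. The paper describes HeyA8-MDR as resistant to carboplatin, SK-OV-3-TR to a taxane and C13 to cisplatin. The HeyA8 family was grown in another medium than the other families. The only replicates of a condition are therefore different cell lines, and each p-value below measures the spread between lines, not between cultures of 1 line. Libraries held 17782556 to 30585059 counts in genes, with a median of 22289428.

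Serine is made from a glycolytic intermediate in 3 steps, catalysed in turn by PHGDH, PSAT1 and PSPH. SHMT1 in the cytosol and SHMT2 in mitochondria then split serine into glycine and a folate-bound one-carbon unit, which feeds the synthesis of purines, thymidylate and methionine. MTHFD2, MTHFD1L and ALDH1L2 carry that unit through the mitochondrial arm of the folate cycle and MTHFD1 carries it in the cytosol. Many genes of the pathway are known targets of ATF4, the transcription factor of the amino acid and integrated stress response.

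The sequences below are the 200 bases before the annotated start of transcription, shown for the serine synthesis genes found and for MTHFD2 and MTHFD1L, which moved differently with QC although both act in mitochondria. They come from RefSeq on GRCh38.p14, which held windows for 6 of the 9 genes (PHGDH, PSAT1, SHMT1, MTHFD2, MTHFD1L and MTHFD1). All 4 genes lie on the plus strand, at chr1:119711734-119711933, chr9:78296925-78297124, chr2:74198415-74198614 and chr6:150866286-150866485 in the order given. Capitals mark matches on either strand to TGATGCAA, a form of the element that ATF4 binds with a CEBP partner, to its looser form TGATGNAA, or to CACGTG, the E-box bound by MYC and related factors.
PHGDH: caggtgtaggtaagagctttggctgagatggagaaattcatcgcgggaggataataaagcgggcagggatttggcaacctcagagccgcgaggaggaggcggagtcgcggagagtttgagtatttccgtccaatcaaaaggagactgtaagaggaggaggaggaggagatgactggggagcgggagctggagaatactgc
PSAT1: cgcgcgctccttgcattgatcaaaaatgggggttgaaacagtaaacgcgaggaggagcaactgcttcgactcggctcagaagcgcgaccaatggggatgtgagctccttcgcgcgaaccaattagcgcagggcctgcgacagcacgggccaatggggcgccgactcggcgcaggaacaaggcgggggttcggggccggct
MTHFD2: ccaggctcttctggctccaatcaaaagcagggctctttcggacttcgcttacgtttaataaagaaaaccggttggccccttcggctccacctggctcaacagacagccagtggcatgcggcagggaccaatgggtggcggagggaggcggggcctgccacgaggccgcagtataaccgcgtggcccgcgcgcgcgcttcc
MTHFD1L: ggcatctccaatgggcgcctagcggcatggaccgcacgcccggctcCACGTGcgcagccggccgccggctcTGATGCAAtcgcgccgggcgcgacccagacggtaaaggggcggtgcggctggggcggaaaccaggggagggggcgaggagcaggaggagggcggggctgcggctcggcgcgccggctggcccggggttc

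The search covered 250 bases before and 50 after each start. TGATGCAA was found in MTHFD1L alone of the 6 genes, with its first base 129 bases before this start (position -129), and CACGTG was found in MTHFD1L at -154 and in MTHFD1 at -15. The windows of PHGDH, PSAT1, SHMT1 and MTHFD2 held no match to any of the 3. Of 27305 genes with a window, 1.08% held TGATGCAA in at least 1 window, 4.46% held TGATGNAA and 8.77% held CACGTG. Every TGATGCAA is also a TGATGNAA, and MTHFD1L has 4 windows, 3 of which share these matches. A match here is a run of letters and not a measured binding site.

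Levels are given in CPM, counts scaled to library size by TMM, and changes as log2 of QC over vehicle with a prior count of 2. A level is a share of a library's RNA, so fewer expressing cells and less RNA per cell cannot be told apart. The HeyA8 library with QC stood apart. At 65 genes that were at least 8-fold higher in HeyA8-MDR than in HeyA8 with vehicle it lay 37.4% of the way (median) toward HeyA8-MDR, and at 108 genes at least 8-fold lower it lay 53.0% of the way. In the other libraries with QC the same measure toward the partner line lay between -0.00987% and 30.5%. For PHGDH, PSAT1, PSPH, SHMT2, MTHFD2 and ALDH1L2 the level in that HeyA8 library was below the vehicle levels of both HeyA8 and HeyA8-MDR. Its part in the changes below was not tested. For the enzyme genes, means and fitted changes over all lines, counts of lines with TMM and correlations are followed by values without HeyA8. The difference between resistant and sensitive lines is repeated without HeyA8 for PHGDH and for the median of these genes. Gene counts of the other folate, methionine, serine and ATF4 response lists are repeated too. Fitted changes of single genes outside the enzymes, glycine cleavage counts and DESeq2 calls are given only with HeyA8 included. So is the PHGDH mean over the sensitive lines. The epithelial keratins KRT8 and KRT18 were present throughout, at 211 to 3961 CPM and 161 to 2104 CPM. KRT7 was at 13.8 to 731 CPM, lowest in OV2008 and C13. KRT19 was at 0.104 to 2009 CPM and EPCAM at 0 to 246 CPM, both lowest in the HeyA8 family. PAX8, a marker of Mullerian epithelium, was at 234 to 480 CPM in the HeyA8 and SK-OV-3 families and at 7.56 to 24.8 CPM in OV2008 and C13. Other ovarian and Mullerian markers were low, WT1 at 0.999 to 4.79 CPM and MUC16 at 0 to 10.9 CPM. The markers of blood and vessel cells summed to 0.182 to 7.71 CPM.

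The first of the 3 serine synthesis enzymes was lower with QC in every line, the second in 4 lines and the third in 4. PHGDH, which oxidises 3-phosphoglycerate, went from 317 to 95.6 CPM in HeyA8, from 166 to 125 in HeyA8-MDR, from 209 to 195 in SK-OV-3, from 306 to 119.6 in SK-OV-3-TR, from 121 to 37.7 in OV2008 and from 83.0 to 47.6 in C13. The level with QC was 30.2% of vehicle in HeyA8, 31.1% in OV2008 and 39.1% in SK-OV-3-TR, but 93.4% in SK-OV-3. Over the 6 lines the mean log2 change of PHGDH was -1.01 ± 0.68 (SD, n = 6). This value belongs to the contrast that chose the genes, so it is a description, and no p-value is given for it. Without HeyA8 the mean was -0.87 ± 0.65 (SD, n = 5). In HeyA8 only 1.25% of genes had a lower log2 change, whereas in SK-OV-3 35.9% did.

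PSAT1, the aminotransferase of the second step, split the lines further. It went from 578 to 152 CPM in HeyA8, from 193 to 218 in HeyA8-MDR, from 502 to 552 in SK-OV-3, from 654 to 159 in SK-OV-3-TR, from 193.5 to 80.9 in OV2008 and from 160.3 to 121 in C13. The lines with the deepest drop of PHGDH also had the deepest drop of PSAT1, and HeyA8-MDR and SK-OV-3 had PSAT1 above vehicle. Its log2 change ran from -2.04 in SK-OV-3-TR to 0.18 in HeyA8-MDR (mean -0.88 ± 0.995, SD, n = 6), and its mean without HeyA8 was -0.68 ± 0.96 (SD, n = 5). PSPH, the phosphatase of the last step, went from 48.2 to 21.4 CPM in HeyA8, from 25.9 to 25.8 in HeyA8-MDR, from 18.8 to 23.8 in SK-OV-3, from 25.9 to 27.8 in SK-OV-3-TR, from 46.3 to 28.5 in OV2008 and from 32.8 to 25.3 in C13. With QC the 6 lines lay in a narrow band of PSPH, at 21.4 to 28.5 CPM, and the log2 change was deepest in HeyA8 (-1.17). SK-OV-3-TR, where PSAT1 was at 24.4% of vehicle, had PSPH at 107%. Counts of the pseudogene PSPHP1 came to 8.01% of those of PSPH, so part of the PSPH signal may be split between the copies. For the other 8 genes the share in pseudogenes was 0.331% or less.

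**Figure D1:**
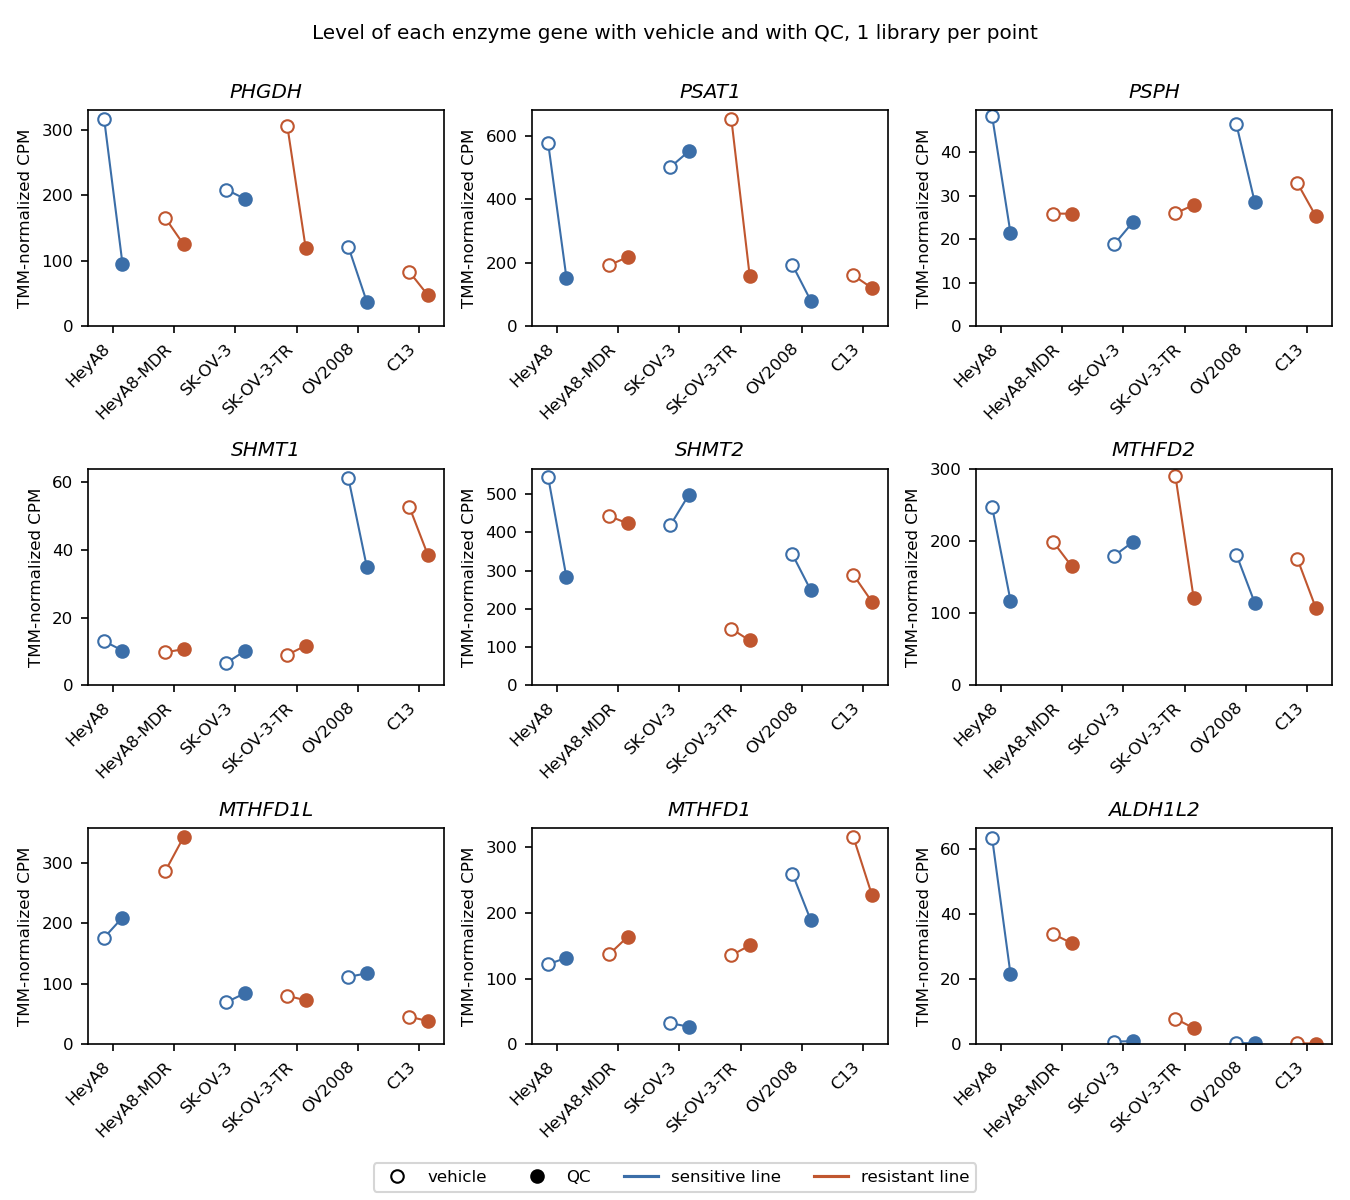
TMM-normalized CPM (vertical axis, from 0) of the 9 genes in the 6 lines (horizontal axis), 1 library per point, open for vehicle and filled for QC, with sensitive lines in blue and resistant lines in orange. PHGDH is lower with QC in 6 of 6 lines and PSAT1 in 4 of 6, while SHMT1 is highest in OV2008 and C13 and ALDH1L2 in the HeyA8 family.

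Of the serine hydroxymethyltransferases, the mitochondrial SHMT2 was lower with QC in 5 of 6 lines and the cytosolic SHMT1 in 3 of 6. SHMT2 went from 544 to 282 CPM in HeyA8, from 443 to 423 in HeyA8-MDR, from 418 to 497 in SK-OV-3, from 148 to 117 in SK-OV-3-TR, from 342 to 248.7 in OV2008 and from 288 to 219 in C13. Apart from HeyA8, where it was at 51.8% of vehicle, the change of SHMT2 stayed within 1.38-fold (mean log2 change -0.33 ± 0.40, SD, n = 6, and -0.20 ± 0.29 without HeyA8, n = 5). SHMT1 went from 13.03 to 10.3 CPM in HeyA8, from 9.77 to 10.7 in HeyA8-MDR, from 6.61 to 10.1 in SK-OV-3, from 9.01 to 11.7 in SK-OV-3-TR, from 61.2 to 35.1 in OV2008 and from 52.6 to 38.6 in C13. The drop was seen in both lines of the OV2008 family, where SHMT1 was most abundant, and in HeyA8. The log2 change of SHMT1 was -0.80 in OV2008 and -0.45 in C13, against 0.60 in SK-OV-3 (mean -0.08 ± 0.54, SD, n = 6, and -0.03 ± 0.58 without HeyA8, n = 5).

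In the mitochondrial folate arm, MTHFD2 was below vehicle and MTHFD1L above it in HeyA8, HeyA8-MDR and OV2008. MTHFD2, a dehydrogenase and cyclohydrolase, went from 248 to 118 CPM in HeyA8, from 199 to 166 in HeyA8-MDR, from 180.2 to 199 in SK-OV-3, from 291 to 121 in SK-OV-3-TR, from 182 to 115 in OV2008 and from 175 to 108 in C13. It was lower with QC in 5 of 6 lines, deepest in SK-OV-3-TR (log2 -1.27) and HeyA8 (-1.07), with a mean of -0.64 ± 0.52 (SD, n = 6), or -0.55 ± 0.53 without HeyA8 (SD, n = 5). MTHFD1L, the formate-releasing synthetase of mitochondria, went from 176 to 209 CPM in HeyA8, from 286 to 342 in HeyA8-MDR, from 69.4 to 84.0 in SK-OV-3, from 80.0 to 72.6 in SK-OV-3-TR, from 111 to 117 in OV2008 and from 45.5 to 38.4 in C13. It was above vehicle in 4 of 6 lines and moved by 1.21-fold or less in each (mean log2 change 0.08 ± 0.22, SD, n = 6, and 0.04 ± 0.23 without HeyA8, n = 5).

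ALDH1L2, which oxidises the one-carbon unit to carbon dioxide in mitochondria, was abundant only in the HeyA8 family, and there the lines differed. It went from 63.5 to 21.7 CPM in HeyA8 and from 34.0 to 31.2 in HeyA8-MDR, and from 7.89 to 4.98 in SK-OV-3-TR. SK-OV-3 had 0.837 CPM with vehicle and 0.954 with QC (20 and 21 counts), OV2008 had 0.336 and 0.353 CPM (6 and 8 counts) and C13 had 0.333 and 0.226 CPM (10 and 6 counts), levels at which a change was not detectable. MTHFD1, the cytosolic enzyme that carries out 3 reactions of the folate cycle, went from 122 to 132 CPM in HeyA8, from 137 to 164 in HeyA8-MDR, from 32.1 to 26.9 in SK-OV-3, from 136 to 151 in SK-OV-3-TR, from 260.1 to 189 in OV2008 and from 315 to 228 in C13. Its log2 change was -0.46 in OV2008 and -0.47 in C13, and lay between -0.26 and 0.25 in the other 4 lines.

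None of the 7 partners with at least 50 counts in every library followed PHGDH in all 6 lines (0 of 7). SHMT2 and MTHFD2 were lower in 5, PSAT1 and PSPH in 4, SHMT1 and MTHFD1 in 3 and MTHFD1L in 2. ALDH1L2 was lower in all 3 lines that gave it at least 50 counts in both libraries, and it is left uncounted in the other 3. Leaving out HeyA8 takes 1 line from each of these counts, except those of MTHFD1 and MTHFD1L. Among all 18720 genes, 861 (4.6%) were lower with QC in all 6 lines, and nothing is read from the members' count since the same contrast chose them. By line, the median log2 change of the 8 partners was -1.01 in HeyA8, 0.06 in HeyA8-MDR, 0.21 in SK-OV-3, -0.24 in SK-OV-3-TR, -0.56 in OV2008 and -0.42 in C13, while the median of all genes lay between -0.00466 and 0 in each line. Of the partners with at least 50 counts, 7 of 7 were lower in C13, 6 of 7 in OV2008, 6 of 8 in HeyA8, 5 of 8 in SK-OV-3-TR, 4 of 8 in HeyA8-MDR and 1 of 7 in SK-OV-3, which was MTHFD1. The lines with the shallowest drop of PHGDH, SK-OV-3 and HeyA8-MDR, were those with the partners' median above 0. The medians by line include ALDH1L2 also where its counts were low.

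**Figure D2:**
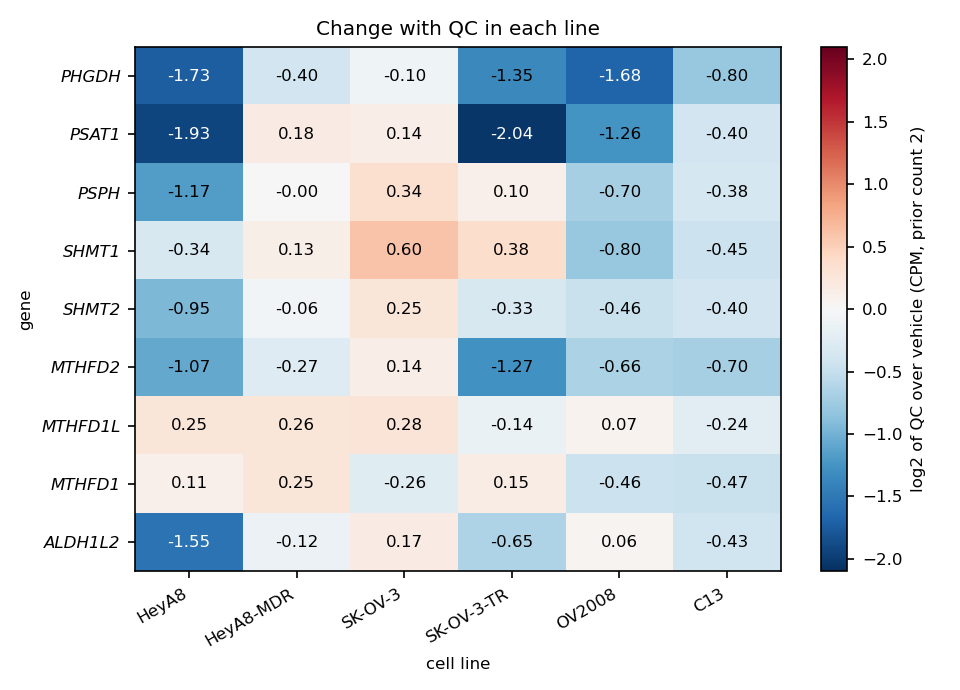
Log2 of QC over vehicle (colour, blue for lower and red for higher) for the 9 genes (rows) in the 6 lines (columns), with the value written in each cell. The PHGDH row holds only negative values, from -1.73 to -0.10, and the SK-OV-3 column holds positive values for 7 of 9 genes.

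In the fit over all 6 lines (edgeR quasi-likelihood, with each line as its own block), the log2 change and its standard error were -1.01 ± 0.21 for PHGDH, -0.88 ± 0.29 for PSAT1, -0.64 ± 0.17 for MTHFD2, -0.58 ± 0.24 for ALDH1L2, -0.33 ± 0.15 for SHMT2 and -0.30 ± 0.19 for PSPH. They were -0.11 ± 0.13 for MTHFD1, -0.10 ± 0.19 for SHMT1 and 0.08 ± 0.12 for MTHFD1L. The median over the 9 genes was -0.33, against 0.00 over all genes tested. Since the contrast chose the genes, no p-value is given for them. Over all 18720 genes, 7.18% were lower and 7.99% higher at an unadjusted p under 0.05, which makes 2840 genes. With Benjamini-Hochberg adjustment edgeR called 0 genes (0%) and DESeq2 called 522. Without HeyA8 the fitted log2 changes were -0.87 for PHGDH, -0.66 for PSAT1, -0.55 for MTHFD2, -0.25 for ALDH1L2, -0.20 for SHMT2, -0.13 for PSPH, -0.16 for MTHFD1, -0.05 for SHMT1 and 0.05 for MTHFD1L, and their median was -0.20.

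The scaling bears on the small and some of the middle-sized changes. With TMM, with DESeq2 size factors and with library size alone PHGDH was lower in 6 of 6 lines, with log2 changes of -0.10, -0.12 and -0.08 in SK-OV-3 respectively. When libraries were scaled to RPLP0, a ribosomal protein transcript used as a reference gene, the median of all genes moved by 0.20 on the log2 scale and PHGDH was lower in 5 of 6, with 0.19 in SK-OV-3. With that scaling MTHFD2 was still lower in 5 lines, but PSAT1, PSPH and SHMT2 were lower in 3, SHMT1 in 2, MTHFD1L in 1 and MTHFD1 in 0. ALDH1L2 was still lower in HeyA8, HeyA8-MDR and SK-OV-3-TR, where it was measured. Against TMM, MTHFD1 went from -0.47 to 0.01 and PSAT1 from -0.40 to 0.07 in C13, and SHMT2 from -0.46 to 0.01 in OV2008. The count for PSPH was 3 with DESeq2 size factors and 5 with library size, as its change in HeyA8-MDR was close to 0, and SHMT1 was lower in 4 with library size. RPLP0 itself had log2 changes of -0.48 in C13 to 0.11 in HeyA8-MDR with TMM.

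Whether the change with QC differed between resistant and sensitive lines was tested as a difference of changes, which the choice of genes did not use. PHGDH had a mean log2 change of -1.17 ± 0.93 (SD, n = 3) in the sensitive lines and of -0.85 ± 0.48 (SD, n = 3) in the resistant lines, and the ranges overlapped. The fitted difference, resistant minus sensitive, was 0.33 ± 0.43 (SE) for PHGDH, 0.29 ± 0.60 for PSAT1, 0.43 ± 0.37 for PSPH, 0.21 ± 0.39 for SHMT1 and 0.12 ± 0.32 for SHMT2. It was -0.21 ± 0.35 for MTHFD2, -0.24 ± 0.25 for MTHFD1L, 0.18 ± 0.28 for MTHFD1 and 0.37 ± 0.51 for ALDH1L2. None of the 9 passed, before adjustment (0 of 9) or after it (adjusted p = 0.9998 for each, edgeR quasi-likelihood with Benjamini-Hochberg adjustment). Without SK-OV-3, 2 of the 9 passed before adjustment, PHGDH (0.87) and PSPH (0.85), and neither after it (edgeR). The count over all genes also rose in that fit, as given below. Its share of the genes tested there is not given, and nothing is read from these 2. The median over the 9 without SK-OV-3 was 0.60 in place of 0.21. Without HeyA8 that median was -0.16 and the difference for PHGDH was 0.03. With all 6 lines included, 217 of 18720 genes (1.16%) had an unadjusted p under 0.05 and 0 (0%) passed after adjustment, while DESeq2 called 1. With 3 lines on each side the standard errors leave room for differences of the size of the changes themselves.

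With vehicle alone, resistant lines were compared with the line they came from. The 3 families did not move alike. PHGDH was 1.88-fold higher in HeyA8 than in HeyA8-MDR and 1.498-fold higher in OV2008 than in C13, but 1.51-fold higher in SK-OV-3-TR than in SK-OV-3. PSAT1, PSPH, SHMT1 and MTHFD2 had the same directions in the 3 families as PHGDH, and PSAT1 was 2.94-fold higher in HeyA8 than in HeyA8-MDR. SHMT2 was lower in the resistant line of all 3 families. The ratio of parent to resistant line for SHMT2 was 1.21 for the HeyA8 pair, 2.75 for the SK-OV-3 pair and 1.22 for the OV2008 pair. MTHFD1 was higher in the resistant line of all 3, with ratios of resistant line to parent of 1.14, 4.34 and 1.18 in the same order.

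For MTHFD1, SHMT2 and ALDH1L2 the widest contrast was in the SK-OV-3 pair. SK-OV-3-TR had 136 CPM of MTHFD1 where SK-OV-3 had 32.1, and 148 CPM of SHMT2 where SK-OV-3 had 418. ALDH1L2 was 8.94-fold higher in SK-OV-3-TR than in SK-OV-3, from 267 and 20 counts. In the OV2008 family MTHFD1L was 2.51-fold higher in OV2008 than in C13. Over the 3 families the fitted log2 difference, resistant minus sensitive, was 0.83 ± 0.47 (SE) for MTHFD1, -0.67 ± 0.34 for SHMT2, 0.73 ± 0.97 for ALDH1L2, -0.47 ± 0.44 for PSAT1 and -0.31 ± 0.37 for PHGDH, and lay between -0.31 and 0.12 for the other 4. No member passed before adjustment (0 of 9) or after it (adjusted p of 0.975 to 0.9931, edgeR quasi-likelihood). Of all genes, 606 of 16091 (3.77%) had an unadjusted p under 0.05 and 0 (0%) passed after adjustment, while DESeq2 called 45 genes and 0 of the 9. The fit had 2 residual degrees of freedom.

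Among the families SHMT1 differed. SHMT1 was at 56.9 ± 6.07 CPM (SD, n = 2) in the OV2008 family with vehicle, 11.4 ± 2.31 in the HeyA8 family and 7.81 ± 1.70 in the SK-OV-3 family. The family means spanned 2.83 on the log2 scale (adjusted p = 0.00969, edgeR quasi-likelihood F test across all genes), and the lowest SHMT1 value in the OV2008 family, 35.1 CPM with QC, was above the highest value elsewhere, 13.03 CPM. ALDH1L2 was at 48.7 ± 20.9 CPM in the HeyA8 family, 4.36 ± 4.99 in the SK-OV-3 family and 0.334 ± 0.00224 in the OV2008 family. ALDH1L2 had 6 and 10 counts in the OV2008 family and entered the fit through the lines where it is high, so its family test is left out here. Of the other 8 genes 1 passed, beside 4483 of 18297 genes (24.5%), and 4 had an unadjusted p under 0.05, beside 41.5% of all genes. SHMT1 did not pass without OV2008 (adjusted p = 0.0697, edgeR) or without C13 (adjusted p = 0.0564, edgeR). Each of these leaves its family with 1 library, which is then assumed to vary like the others.

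The other 3 genes with an unadjusted p under 0.05 were MTHFD1L, PHGDH and PSAT1. MTHFD1L was at 231 ± 77.6 CPM in the HeyA8 family, 74.7 ± 7.50 in the SK-OV-3 family and 78.4 ± 46.6 in the OV2008 family (adjusted p = 0.0629, edgeR). PHGDH was at 241 ± 107, 257 ± 68.5 and 102 ± 27.1 CPM in the same order (adjusted p = 0.1043, edgeR), and PSAT1 at 385 ± 272, 578 ± 107 and 177 ± 23.5 CPM (adjusted p = 0.1045, edgeR). DESeq2 also called MTHFD1L (adjusted p = 0.0170) and PSAT1 (adjusted p = 0.0460), and edgeR called MTHFD1L (adjusted p = 0.0498) when 10 counts were required in every library. With no filter edgeR called PHGDH (adjusted p = 0.0328), PSAT1 (0.00231), MTHFD1L (0.00174) and MTHFD1 (0.00131). In the 6 libraries with QC it called PHGDH (0.0213) and MTHFD1L (0.0464). PSPH, SHMT2 and MTHFD2 passed in none of these settings. The count over all genes also rose with DESeq2 and with no filter, as given below. In the fit as reported 24.5% of all genes passed. The share in each of these other settings is not given, and nothing is read from these calls. MTHFD2 differed least, at 224 ± 34.2, 236 ± 78.7 and 178 ± 4.40 CPM (adjusted p = 0.5811, edgeR).

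Levels of different genes were compared per kb of the canonical transcript. With vehicle the mean over the 6 lines was 172 ± 101 CPM per kb for PSAT1, 169 ± 63.8 for SHMT2, 107 ± 51.4 for PHGDH, 53.0 ± 32.6 for MTHFD1, 48.3 ± 10.7 for MTHFD2, 37.1 ± 25.9 for MTHFD1L, 16.7 ± 6.03 for PSPH, 10.04 ± 9.76 for SHMT1 and 2.40 ± 3.48 for ALDH1L2 (SD, n = 6). The ranges of every pair of neighbours in this order overlapped. PSPH, the last enzyme of serine synthesis, stood below the other 2 in every line. Across lines MTHFD2 varied least, by 1.66-fold from lowest to highest, and ALDH1L2 most, by 191-fold.

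**Figure D3:**
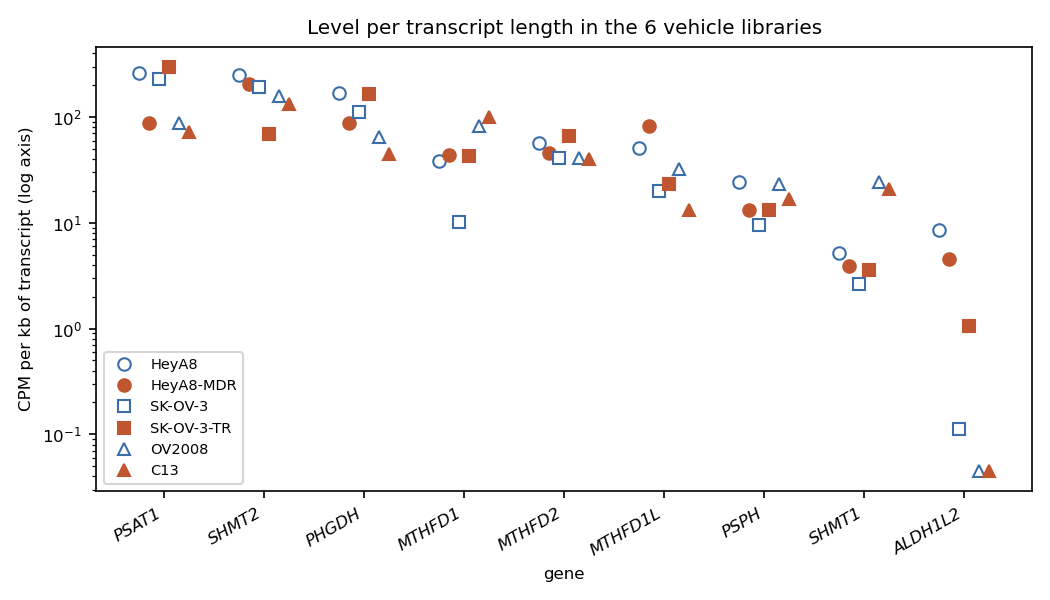
CPM per kb of canonical transcript (vertical log axis) of the 9 genes in the 6 vehicle libraries, ordered by their mean. Open marks are sensitive lines and filled marks resistant lines, with 1 marker shape per family. MTHFD2 spans 39.8 to 66.2 and ALDH1L2 spans 0.0448 to 8.54.

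The ratio of mitochondrial to cytosolic enzyme is given per line as a description. Per kb with vehicle, SHMT2 was 48.9-fold above SHMT1 in HeyA8, 53.1-fold in HeyA8-MDR and 74.2-fold in SK-OV-3, against 19.2-fold in SK-OV-3-TR, 6.55-fold in OV2008 and 6.42-fold in C13. With QC the ratio was lower in HeyA8 (32.2), HeyA8-MDR (46.5), SK-OV-3 (57.8) and SK-OV-3-TR (11.7), and higher in OV2008 (8.30) and C13 (6.65). MTHFD1L stood above MTHFD1 in HeyA8 (1.32-fold), HeyA8-MDR (1.91-fold) and SK-OV-3 (1.98-fold) and below it in SK-OV-3-TR, OV2008 and C13, where MTHFD1 was 1.85-fold, 2.55-fold and 7.59-fold higher. Between SK-OV-3 and SK-OV-3-TR both ratios therefore shifted toward the cytosolic enzyme. MTHFD2 stood above its paralog MTHFD2L in all 12 libraries, by 2.48-fold in SK-OV-3-TR with QC and by 4.73-fold to 22.8-fold in the others.

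Genes around the pathway were counted in the same 6-line fit (edgeR), and as they come from the contrast that chose PHGDH they are a description too. Among all genes 7.18% were lower and 7.99% higher at an unadjusted p under 0.05, and 4.6% were lower in all 6 lines. Of 17 other folate genes, 3 were lower and 0 higher at an unadjusted p under 0.05, with a median log2 change of -0.09. Among them were SLC19A1, the reduced folate carrier (-1.19 ± 0.40, SE), and FPGS, which adds glutamates to folate (-0.26 ± 0.11). SLC19A1 was lower in 6 of 6 lines, with its deepest value of -4.21 in OV2008. Of 4 genes of the glycine cleavage system, 1 was lower, the shared dehydrogenase subunit DLD (-0.39 ± 0.14), while GCSH (-0.36 ± 0.29) and GLDC (0.13 ± 0.32) did not pass. With vehicle GCSH had as few as 20 counts and GLDC as few as 2.

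Of 9 genes of the methionine cycle and transsulfuration, 3 were lower and 0 higher (median -0.17), beside 7.18% and 7.99% of all genes. They were CBS, which condenses serine with homocysteine (-1.06 ± 0.30), the methionine synthase MTR (-0.38 ± 0.11) and MAT2A, which makes S-adenosylmethionine (-0.68 ± 0.22). Each was lower in 6 of 6 lines, but in SK-OV-3 by only -0.03 for CBS and -0.08 for MAT2A. MAT2A was deepest in HeyA8 (-1.92). CBS has a near-identical copy in some annotations, so its counts may be split. They were also low, at 30 to 97 with vehicle. Of 14 genes of serine transport and use, 3 were lower and 1 higher (median -0.07). The 3 were SPTLC2, a subunit of the enzyme that joins serine to palmitate (-0.70 ± 0.12), the mitochondrial carrier SFXN2 (-0.79 ± 0.20) and SLC1A5, a neutral amino acid transporter (-0.77 ± 0.20). All 3 were lower in 6 of 6 lines, SFXN2 by only -0.05 in SK-OV-3-TR. The other subunit beside SPTLC2, SPTLC1, was the 1 that was higher, in 6 of 6 lines. Scaling to RPLP0 was applied to the 9 members only, so these tallies were not tested with it. None of these lists had a gene that passed after adjustment with edgeR, while DESeq2 called 1 of 17 folate genes, 1 of 9 methionine genes and 4 of 14 serine genes. The DESeq2 count over all genes is given with the 6-line fit above. Without HeyA8 the counts at an unadjusted p under 0.05 were again 3 lower for each of these 3 lists, with medians of -0.11, -0.25 and -0.03. The share of all genes without HeyA8 is not given, and nothing is read from these counts.

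ATF4 response genes outside the pathway also differed from line to line. Of 32 such genes, 13 were lower and 3 higher at an unadjusted p under 0.05 and 0 passed after adjustment (edgeR), while DESeq2 called 4. Among all genes 7.18% were lower and 7.99% higher in the same fit. The 3 with the smallest p were ATF3, a stress-induced transcription factor (1.48 ± 0.36, SE), PYCR1, of proline synthesis (-0.71 ± 0.18), and the glutamyl-prolyl tRNA synthetase EPRS1 (-0.53 ± 0.14). ATF4 itself had -0.39 ± 0.16, with log2 changes of -0.92 in HeyA8 and 0.26 in HeyA8-MDR. The median of the 32 was -0.86 in HeyA8, -0.02 in HeyA8-MDR, 0.34 in SK-OV-3, -0.68 in SK-OV-3-TR, -0.41 in OV2008 and -0.18 in C13, and 30 of 32 were lower in SK-OV-3-TR against 4 of 32 in SK-OV-3. These medians rest on 1 pair of libraries per line and share those libraries with the enzymes' values. Without HeyA8 the counts were 6 lower and 3 higher, without SK-OV-3-TR 7 and 5, without OV2008 8 and 3, without C13 11 and 3, without HeyA8-MDR 15 and 3 and without SK-OV-3 19 and 3.

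**Figure D4:**
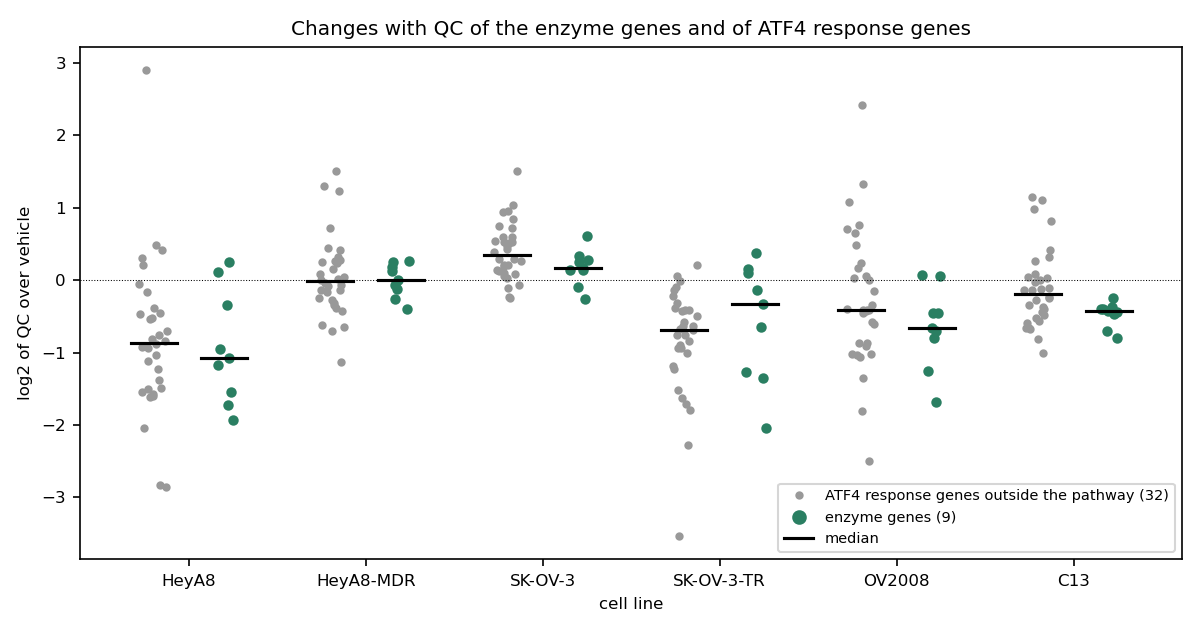
Log2 of QC over vehicle (vertical axis) in each line for 32 ATF4 response genes outside the pathway (grey, 1 point per gene) and for the 9 enzyme genes (green), with bars at the medians. In SK-OV-3 both medians lie above 0 (0.34 and 0.17) and in HeyA8 both lie below -0.8.

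Calls in the other comparisons are given beside the shares of all genes. For the difference between resistant and sensitive lines in the change with QC, 1 of the 32 ATF4 response genes passed an unadjusted p of 0.05, ATF3 (-1.63 ± 0.54, SE, adjusted p = 0.9998, edgeR), and the next were ASNS (-0.79 ± 0.50) and DDIT4 (0.66 ± 0.42). Of all genes, 1.16% passed unadjusted in that comparison. With vehicle, 3 of 32 passed unadjusted between resistant and sensitive lines, beside 3.77% of all genes. They were ATF3 (2.26 ± 0.38), the amino acid transporter subunit SLC7A5 (-1.04 ± 0.37) and the tRNA exporter XPOT (-0.72 ± 0.26). Among families 7 of 32 passed after adjustment (edgeR), against 24.5% of all genes, with the smallest p for SESN2 (log2 span of 2.80), STC2 (3.69) and VLDLR (2.76). Of 13 genes of serine transport and use tested with vehicle, 3 had an unadjusted p under 0.05 between resistant and sensitive lines. All 3 were lower in the resistant lines, and the share of all genes is again 3.77%. These were the transporters SLC38A2 (-1.24 ± 0.25) and SLC6A9 (-1.66 ± 0.43) and the mitochondrial enzyme DMGDH, which had 0 counts in at least 1 library and is given no fold, and each had an adjusted p of 0.975 (edgeR).

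Across the 12 libraries the genes whose log2 CPM followed that of PHGDH most closely were EIF4EBP1 (Pearson r = 0.94), PSAT1 (0.93), EP400 (0.93), AARS1 (0.92) and GGCX (0.92), out of all genes that passed the filter. Among the partners, r was 0.86 for MTHFD2, 0.55 for ALDH1L2, 0.29 for SHMT2, 0.24 for MTHFD1L, 0.10 for PSPH, -0.51 for MTHFD1 and -0.65 for SHMT1. Without the HeyA8 libraries (n = 10), r was 0.91 for PSAT1, 0.86 for MTHFD2, 0.52 for ALDH1L2, 0.15 for SHMT2, 0.21 for MTHFD1L, -0.28 for PSPH, -0.56 for MTHFD1 and -0.72 for SHMT1, and it was 0.90 to 0.95 for the other 4 genes named. With all 12, PSAT1 and MTHFD2 ranked above 99.99% and 99.81% of genes. The 12 libraries are 6 lines in pairs, so these values are a description that mixes differences between lines with the change with QC, and they carry no p. GGCX, the vitamin K-dependent carboxylase, was the only other gene of the 5 that was lower with QC in 6 of 6 lines.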

How the data were processed

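RNA was sequenced from 6 established ovarian cancer cell lines, each with vehicle and with 8 µM QC for 6 h. The authors deposited 1 table of raw counts per gene. The paper's methods name TopHat, hg19 and HTSeq, whereas the submitters' processing notes name STAR 2.7.3a, HTSeq 0.6.1p1 and GRCh38.p13. The table names no build, and the strand setting and annotation are not given in the sources used here. Gene names were paired by identifier (58620 of 60669, holding 99.87% of counts), and coordinates came from RefSeq on GRCh38.p14.

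Counts were filtered with filterByExpr (minimum count 10, minimum total 15), scaled by TMM and tested with edgeR 4.0.16 quasi-likelihood F tests, with cell line as the block for QC and family as the block for resistance. The pairing comes from the shared line (correlation of deviations from group means 0.8928 to 0.929). Alternatives used DESeq2 1.42.0, other scalings and filters, and each line left out. Means, tallies and correlations without HeyA8, and tallies over lines with at least 50 counts, were added after seeing the data. Named genes were the 9 members, of each other list the 3 with the smallest p in each comparison described, RPLP0 and the 5 genes most correlated with PHGDH. Single-gene values of some folate genes that the rule selects are not reported here. SPTLC1, ATF4 and MTHFD2L were named outside this rule after their values were seen. The members and lists were chosen with earlier results of these data known. Among the 9 members depth limits only the lowest gene, ALDH1L2. Of the list genes named, GLDC, GCSH, SLC46A1, SFXN2 and CBS had as few as 2, 20, 24, 28 and 30 counts with vehicle. Scripts were tested on simulated data.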

Additional observations from a re-analysis of the deposited data

How the results depend on the processing

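With 1 library per line and treatment, every error is a spread between lines, and members under about 10 counts (ALDH1L2 in OV2008 and C13) could not show a change. Counts of genes past the adjusted threshold moved with the filter, the tool and the lines included. For the change with QC over 6 lines edgeR called 0, DESeq2 522 and edgeR with no filter 791, and leaving out 1 line gave 0 to 1 (1 without HeyA8-MDR). In sensitive lines the counts were 0, 32 and 195, with 0 to 18 on leaving out a line (18 without SK-OV-3), and in resistant lines 35 with no filter. For the difference between resistant and sensitive they were 0, 1 and 5, for resistant against sensitive with vehicle 0, 45 and 146, and among families 4483, 6965 and 7559, with 2781 when 10 counts were required in every library and 1180 to 4939 on leaving out a library (1180 without C13, 1271 without OV2008, 1657 without HeyA8-MDR, 1806 without HeyA8). The cause was not tested.

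At an unadjusted p under 0.05, dropping the replicate block (the line, or the family for resistance) lowered the counts from 2840 to 108 over 6 lines, 1234 to 30 in sensitive lines, 1128 to 23 in resistant lines, 217 to 6 for the difference and 606 to 104 for resistance with vehicle. With no filter they were 1918 in sensitive lines, 501 for the difference and 1583 for resistance, where DESeq2 gave 1058. The difference had 120 genes with 10 counts required in every library and 438 with the isogenic family as block. Leaving out a line gave 808 to 2012 in sensitive lines (808 without HeyA8, 2012 without SK-OV-3, 813 without OV2008), 416 to 1376 in resistant lines (416 without HeyA8-MDR) and 187 to 540 for the difference (419 without SK-OV-3, 466 without OV2008, 540 without C13).

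The members' differences that turned direction were all short of the threshold as reported. For the difference between resistant and sensitive in the change with QC, PSAT1 was -0.32 without the block and -0.20 to 0.94 on leaving out a line, SHMT2 -0.061 with RPLP0 scaling and -0.16 to 0.45, MTHFD1 -0.0021 with RPLP0 scaling, SHMT1 -0.12 to 0.60, MTHFD2 -0.48 to 0.14 and ALDH1L2 -0.55 to 0.81. For resistance, the 6 libraries with QC gave 0.018 for PHGDH, 0.12 for PSPH, 0.14 for SHMT1 and -0.10 for MTHFD2, and without the family block MTHFD1L was 0.23 and ALDH1L2 -0.59. Leaving out a family gave -0.72 to 0.0053 for PHGDH, -0.91 to 0.058 for PSAT1, -0.30 to 0.11 for SHMT1, -0.16 to 0.33 for MTHFD2, -0.54 to 0.49 for MTHFD1L and -0.56 to 1.78 for ALDH1L2.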

Other observations

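ALDH1L1, the cytosolic paralog of ALDH1L2, was at or near 0 in every library, at 0 to 0.329 CPM per kb, so OV2008 and C13 held little of either paralog, with ALDH1L2 at 0.0304 to 0.0475 CPM per kb there. The lists were also counted between families with vehicle, with 10 counts required in every library (edgeR). After adjustment 2 of 14 other folate genes and 2 of 7 methionine cycle and transsulfuration genes passed. So did 2 of 11 serine transport and use genes and 8 of 32 ATF4 response genes. The share of all genes that passed with that requirement is not given. Without the requirement it was 24.5%, from another set of genes, and nothing is read from these counts. In the fit described above, list genes that passed and had at least 20 counts in every vehicle library included SLC46A1, the proton-coupled folate transporter (log2 span of 3.02), MTRR (1.56), AHCY (1.84) and SFXN2 (3.73).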
